A study of Mus musculus with 27 samples.

Results

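The genes described here build and serve cilia. They are the 45 gene symbols of the array that start with Ift or Bbs and a digit, or with Dnah, Dnahc, Dnaic, Dnali, Tekt, Rsph or Spag, or that equal Foxj1, out of 16675 different gene symbols. Membership used names only, and the probe with the highest mean over all arrays stood for a gene. The transport class holds 16 genes, of which 9 encode intraflagellar transport proteins and 7 belong to the Bardet-Biedl syndrome family. The motile axoneme class holds 22 genes for dynein arms, radial spokes, tektins, the central apparatus and dynein arm assembly. Another 6 genes carry a Spag name (sperm-associated antigen) without a settled place in the axoneme, and the last is Foxj1.

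RNA came from the olfactory mucosa of female FVB mice aged 25 days. In the occluded group, airflow had been blocked by cautery of a single naris and the mucosa of the blocked side was taken. The open group is the other side of the same individuals. The normal group is mucosa of mice given a sham cautery on the muzzle, which the design text calls untreated. Each group had 3 biological replicates with 3 arrays each, 27 arrays in all, and each value below is the mean of a replicate's 3 arrays. The labels give neither the age at surgery nor whether a replicate pooled mice. Samples of the occluded and open sides with equal numbers in their titles were read as the same mouse.

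Intraflagellar transport (IFT) carries cargo along the microtubules of a cilium on trains of proteins, with the IFT-B complex moving outwards and the IFT-A complex needed for the return. The BBSome, an assembly of Bardet-Biedl syndrome (BBS) proteins, rides on these trains and moves membrane proteins into and out of the cilium. The sensory cilia of mammalian olfactory neurons, which hold the odorant receptors and their signalling enzymes, depend on both and do not beat. Beating cilia, as on the multiciliated cells of respiratory epithelium, are driven by dynein arms, motors that the olfactory cilia of mammals lack, and form under control of the transcription factor Foxj1. Radial spokes and the central apparatus take part in controlling the beat. The transport genes therefore serve both kinds of cilium, while the dynein arm genes belong to the beating kind.

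Promoters are shown because genes of both classes are known targets of RFX transcription factors, which bind an element called the X-box. Mouse RefSeq promoters (GRCm38.p6, 250 bases before to 50 after the gene start, 300 in all) were at hand for 38 of the 45 members. An X-box was found on either strand in 2 of 13 transport promoters (15.4%), and in 4 of 23 promoters of 20 axonemal genes (17.4%). It was found in none of 6 promoters of the other Spag genes and in 1.53% of all 32851 promoters. The matches lay in Bbs1 and Ift57 of the transport class and in Dnaic1, Spag16 and Tekt2 of the axoneme class, with the Tekt2 match counted from 2 gene starts. They are printed 5′ to 3′ on the gene's strand with the matched X-box in capitals and 15 bases on each side.
Bbs1, chr19:4906598-4906641, minus strand: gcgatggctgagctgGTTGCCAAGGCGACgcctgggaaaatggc
Ift57, chr16:49699192-49699235, plus strand: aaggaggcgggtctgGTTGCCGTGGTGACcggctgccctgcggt
Dnaic1, chr4:41569760-41569802, plus strand: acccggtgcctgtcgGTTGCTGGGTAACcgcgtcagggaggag
Spag16, chr1:69826852-69826895, plus strand: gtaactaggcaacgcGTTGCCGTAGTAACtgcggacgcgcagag
Tekt2, chr4:126325690-126325732, minus strand: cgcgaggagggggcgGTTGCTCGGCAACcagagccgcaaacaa
The match begins 87 bases before the gene start in Ift57, 19 in Dnaic1, 103 in Spag16 and 71 before the farther start in Tekt2. In Bbs1 it begins 1 base after the start. The Ift57 promoter holds 2 matches, of which the first is shown. Searched alone on both strands, GTTGCC, which can overlap an X-box, was found in 6 of 13 transport promoters (46.2%), 7 of 23 axonemal promoters (30.4%) and 12.5% of all promoters. The forkhead motif TGTTTAC was found in none of the 13 transport promoters, in 2 of 23 axonemal promoters (8.7%, those of Dnahc17 and Tekt3) and in 3.65% of all. A match describes letters in a window and not a bound site.

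The arrays differed in brightness, with median intensities of 123 to 274 per array before normalization, a range of 1.15 on the log2 scale, and all values below are log2 intensities after quantile normalization. Background-subtracted values below 0 gave each array a noise limit (their root mean square, multiplied by 3), which lay between 11.6 and 24.1. All 16 transport genes, 16 of 22 axonemal genes, 6 of 6 other Spag genes and Foxj1 lay above it on all 27 arrays. That makes 39 of 45 members, against 21415 of all 29922 probes. Among the other 6, Spag17 lay below it on 25 arrays, Dnahc14 on 16, Dnahc17 on 12, Dnahc2 and Dnahc5 on 2 each, and Tekt5 on 1. The labelled tissue was checked on markers of mature olfactory neurons: 9 of 12 listed genes were measured, none lay below the noise limit, and Omp, the olfactory marker protein, was saturated on 26 of 27 arrays. Of 10 markers of multiciliated cells, 8 were measured and none lay below the noise limit. Most probes of the array passed this limit, so passing it does not by itself show which cell types the mucosa held. In whole tissue, fewer cells of a type and less RNA per cell cannot be told apart.

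**Figure D1:**
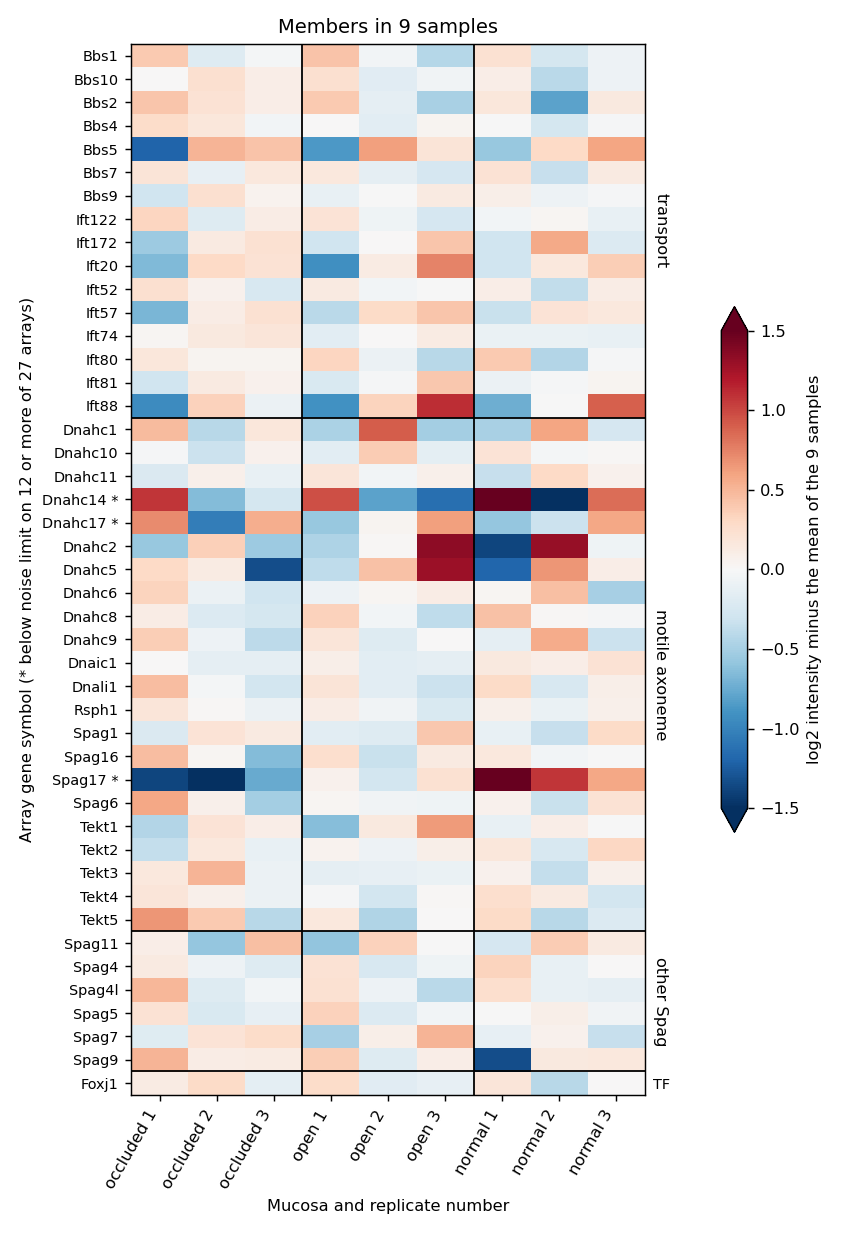
Colour gives the log2 intensity of each member (rows) in each of the 9 samples (columns) minus its mean over the 9 samples. Apart from Spag17, no gene has a colour of its own in each group, and the 3 genes marked with an asterisk lay below the noise limit on 12 or more of 27 arrays.

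The first question was whether the cilia genes differed between the occluded side and the open side of the same mice. No member passed an adjusted p of 0.05 in limma's moderated test over all 29922 probes, where 66 probes (0.221% of all tested) did. The transport genes had a median occluded minus open difference of 0.03, with 8 of 16 above 0. The axonemal genes had a median of -0.03, with 10 of 22 above 0. Over all probes the median was 0.00 and 50.7% of differences lay above 0. At an unadjusted p of 0.05 a single member passed, against 6.19% of all probes. That member was Spag17, whose probe lay below the noise limit on 9 of 9 occluded and 9 of 9 open arrays.

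Bbs2, a core subunit, had 11.21, 11.01 and 10.90 on occluded sides, 11.18, 10.66 and 10.31 on open sides, and 10.96, 9.99 and 10.94 in normal mucosa. The occluded value exceeded the open value in 3 of 3 mice, but the groups overlapped. The difference was 0.32 ± 0.25 (SE), a fold of 1.25 with a 95% interval of 0.848 to 1.84 (adjusted p = 0.976). Bbs4, a subunit also found at the satellites around centrioles, had 12.38, 12.28 and 12.06 on occluded sides, 12.12, 11.95 and 12.15 on open sides, and 12.10, 11.84 and 12.09 in normal mucosa. Only mice 1 and 2 had the occluded side higher, and the difference was 0.17 ± 0.14 (adjusted p = 0.990). Of the further subunits Bbs1, Bbs7, Bbs9 and Bbs5, the differences were 0.07, 0.15, -0.01 and -0.07, each within 1 SE of 0. The median of the 6 subunits was 0.11, with 4 of 6 above 0. Bbs10, a chaperonin-like protein that helps to assemble the BBSome and is not a part of it, had 9.43, 9.66 and 9.52 on occluded sides, 9.66, 9.25 and 9.37 on open sides, and 9.52, 9.01 and 9.35 in normal mucosa. Its side difference changed sign between mice and averaged 0.11 ± 0.17.

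The 9 IFT genes had a median difference of -0.03 between occluded and open sides, with 3 of 9 above 0. Ift74, an IFT-B protein that binds tubulin together with Ift81, had 9.67, 9.78 and 9.81 on occluded sides, 9.47, 9.64 and 9.75 on open sides, and 9.53, 9.53 and 9.52 in normal mucosa. The occluded side was the higher one in each of the 3 mice, by 0.19, 0.14 and 0.06, yet the values of the sides overlapped. The fitted difference was 0.13 ± 0.12, with a 95% interval from -0.15 to 0.41 (adjusted p = 0.992). Ift52, a core IFT-B protein, had 12.24, 12.07 and 11.77 on occluded sides, 12.14, 11.96 and 11.997 on open sides, and 12.10, 11.63 and 12.11 in normal mucosa, a side difference of -0.01 ± 0.16. Ift57, a peripheral IFT-B subunit, was the only transport gene with the occluded side lower in 3 of 3 mice, with differences of -0.28, -0.18 and -0.19 and a fitted difference of -0.22 ± 0.23. It also has 2 further probes on the array, which gave 0.11 ± 0.29 and 0.19 ± 0.22, so its probes did not share a direction. Ift122, the only IFT-A protein among the members, had a difference of 0.12 ± 0.16. Ift80 and Ift20 had 0.14 ± 0.21 and -0.03 ± 0.31, while Ift172 and Ift81 had -0.10 ± 0.24 and -0.09 ± 0.16. Ift88, a core IFT-B protein whose loss shortens or abolishes cilia in mice, had -0.41 ± 0.44, which came from mouse 3, where the occluded side had 5.96 and the open side 7.15.

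**Figure D2:**
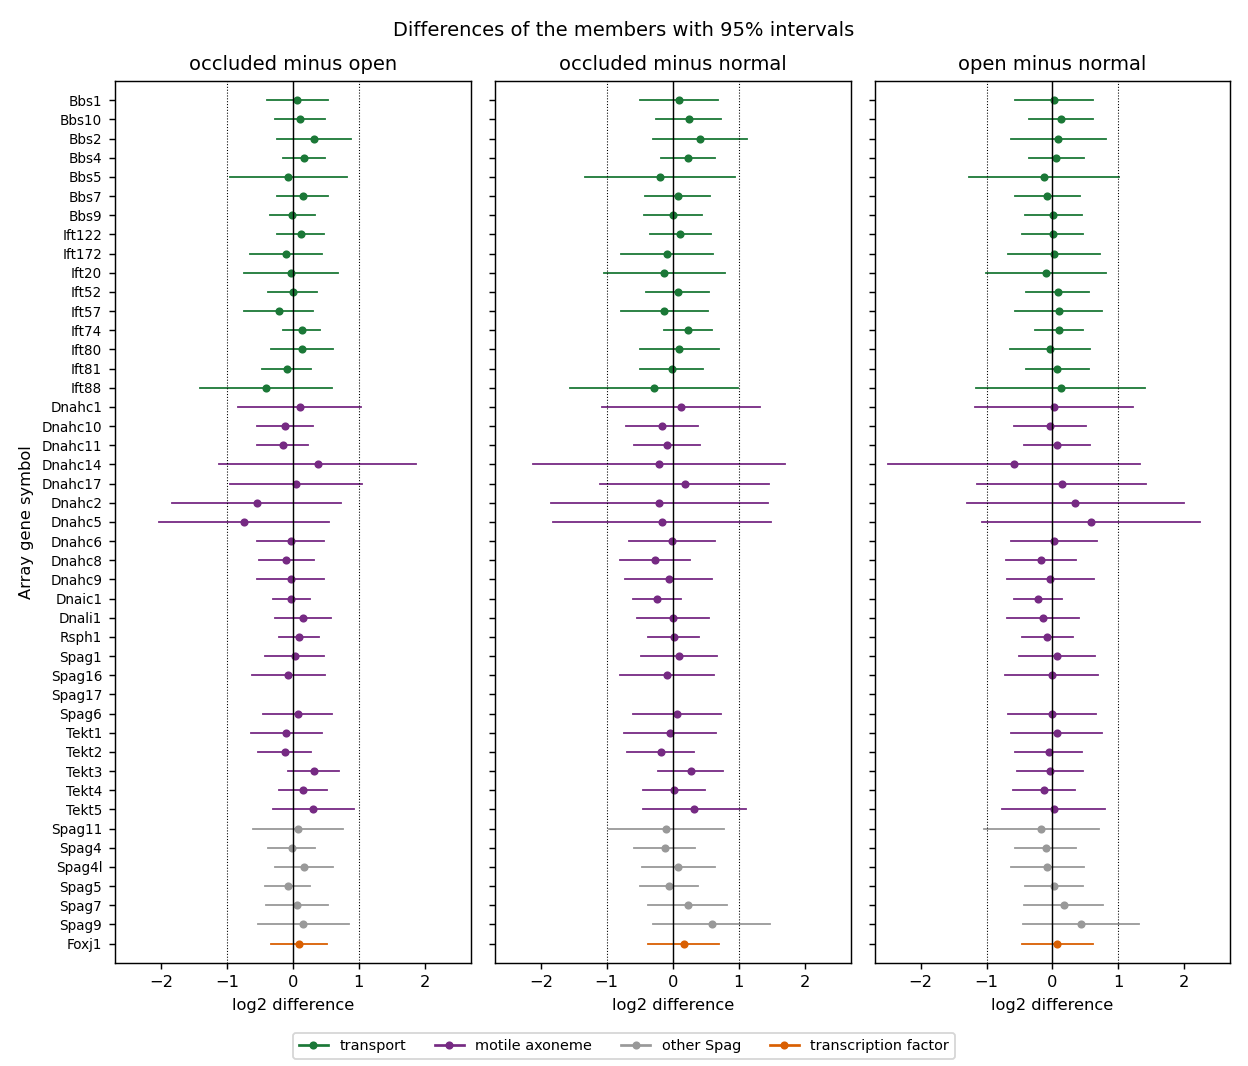
Points are log2 differences of each member in 3 comparisons, bars are their 95% intervals from the fit over all probes, and dotted lines mark a 2-fold change either way. All intervals shown cross 0, and Spag17, below the noise limit on most arrays, is not drawn.

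Foxj1, the regulator of beating cilia, had 9.58, 9.74 and 9.31 on occluded sides, 9.74, 9.29 and 9.33 on open sides, and 9.64, 9.04 and 9.46 in normal mucosa. The occluded side was higher in 1 mouse and lower in 2, and the difference was 0.09 ± 0.19 with a 95% interval from -0.33 to 0.52. Its sign turned when mouse 2 was left out on both sides, to -0.09.

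Among the structures of the beating axoneme, the tektins, which form filaments in the wall of the doublet microtubules, gave the only axonemal gene above the noise limit whose sides did not overlap. Tekt3 had 6.68, 7.04 and 6.44 on occluded sides, 6.38, 6.40 and 6.43 on open sides, and 6.58, 6.17 and 6.60 in normal mucosa. All 3 occluded values lay above all 3 open values, by as little as 0.01 in mouse 3, and they overlapped the normal ones. The difference was 0.31 ± 0.17, a fold of 1.24 (adjusted p = 0.908). Of all probes, 3.76% had the occluded values above all open ones without overlap, against 1 of 45 members. The other tektins had differences of -0.10 (Tekt1), -0.13 (Tekt2), 0.15 (Tekt4) and 0.31 (Tekt5), all with overlap.

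Rsph1, a radial spoke head protein of beating cilia, had 14.32, 14.17 and 14.06 on occluded sides, 14.25, 14.09 and 13.91 on open sides, and 14.22, 14.05 and 14.22 in normal mucosa. It was chosen after its values were seen, since it had the narrowest interval among the axonemal genes other than Dnaic1. The difference was 0.10 ± 0.13 with a 95% interval from -0.20 to 0.40, so a fall or rise by 2-fold lay outside it. Dnaic1, an outer dynein arm intermediate chain, had 10.02, 9.87 and 9.87 on occluded sides and 10.10, 9.86 and 9.88 on open sides. Here the sides differed by -0.02 ± 0.13. Dnali1, a light intermediate chain of the inner arm, had a difference of 0.15 ± 0.19, and its further probe gave -0.01 ± 0.20.

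The 10 dynein heavy chains, the motors of the arms, had a median side difference of -0.06, with 3 of 10 above 0. The outer arm chains of airway cilia, Dnahc5, Dnahc9 and Dnahc11, had differences of -0.75 ± 0.57, -0.03 ± 0.22 and -0.15 ± 0.17. Dnahc5 had 5.94, 5.76 and 4.31 on occluded sides, 5.26, 6.08 and 6.92 on open sides, and 4.45, 6.30 and 5.75 in normal mucosa. Its difference came from mouse 3, where the sides differed by -2.61, while in mouse 1 they differed by 0.69. Without mouse 3 the difference was 0.18. The outer arm chains of sperm tails, Dnahc8 and Dnahc17, had -0.10 ± 0.18 and 0.04 ± 0.44. Of the inner arm chains, Dnahc1 had 0.10 ± 0.41 and Dnahc2 -0.55 ± 0.57, while Dnahc6 and Dnahc10 had -0.03 ± 0.22 and -0.12 ± 0.19. A further probe of Dnahc6, below the noise limit on 22 of 27 arrays, gave 1.22 ± 0.58 (adjusted p = 0.852). Its occluded values lay above all open ones, as for 3.76% of all probes. A further probe of Dnahc9, below the limit on 13 of 27 arrays, gave 0.08 ± 0.38. Dnahc1 changed sign between mice, with side differences of 0.95, -1.32 and 0.69, and its 2 further probes gave -0.20 ± 0.20 and, from a probe below the noise limit on 9 of 27 arrays, -0.65 ± 0.25. Dnahc14, below the noise limit on 5 of 9 occluded and 7 of 9 open arrays, had 0.37 ± 0.66.

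Of the Spag genes of the axoneme, Spag6 and Spag16 encode proteins of the central apparatus and Spag1 helps to assemble dynein arms in the cytoplasm. Their side differences were 0.08 ± 0.23, -0.07 ± 0.24 and 0.03 ± 0.20. Spag6 and Spag16 had the occluded side higher in mice 1 and 2 and lower in mouse 3. Spag17, a further central apparatus protein, had the smallest p of all members in each comparison. Its values were 0.27, -0.12 and 0.89 on occluded sides, 1.71, 1.37 and 1.87 on open sides, and 3.89, 2.72 and 2.22 in normal mucosa, with no overlap between any of the groups. Its probe lay below the noise limit on 9 of 9 occluded, 9 of 9 open and 7 of 9 normal arrays, so no fold is given. Its adjusted p was 0.321 for occluded against open sides. The lower direction without overlap held for this 1 member and for 2.94% of all probes.

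The 6 Spag genes without a settled place in the axoneme had a median side difference of 0.07, with 4 of 6 above 0. Spag5, a protein of the mitotic spindle, had -0.08 ± 0.15, and Spag9, a scaffold for JNK signalling, had 0.15 ± 0.30. Spag4 and Spag4l (now Sun5), SUN-domain proteins of the nuclear envelope, had -0.02 ± 0.16 and 0.17 ± 0.19. Spag7 had 0.06 ± 0.21 and Spag11, a defensin-like secreted protein, had 0.07 ± 0.30. In 1 sample of normal mucosa, replicate 1, Spag9 had 9.29, against 10.76 and 10.79 in the other two.

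**Figure D3:**
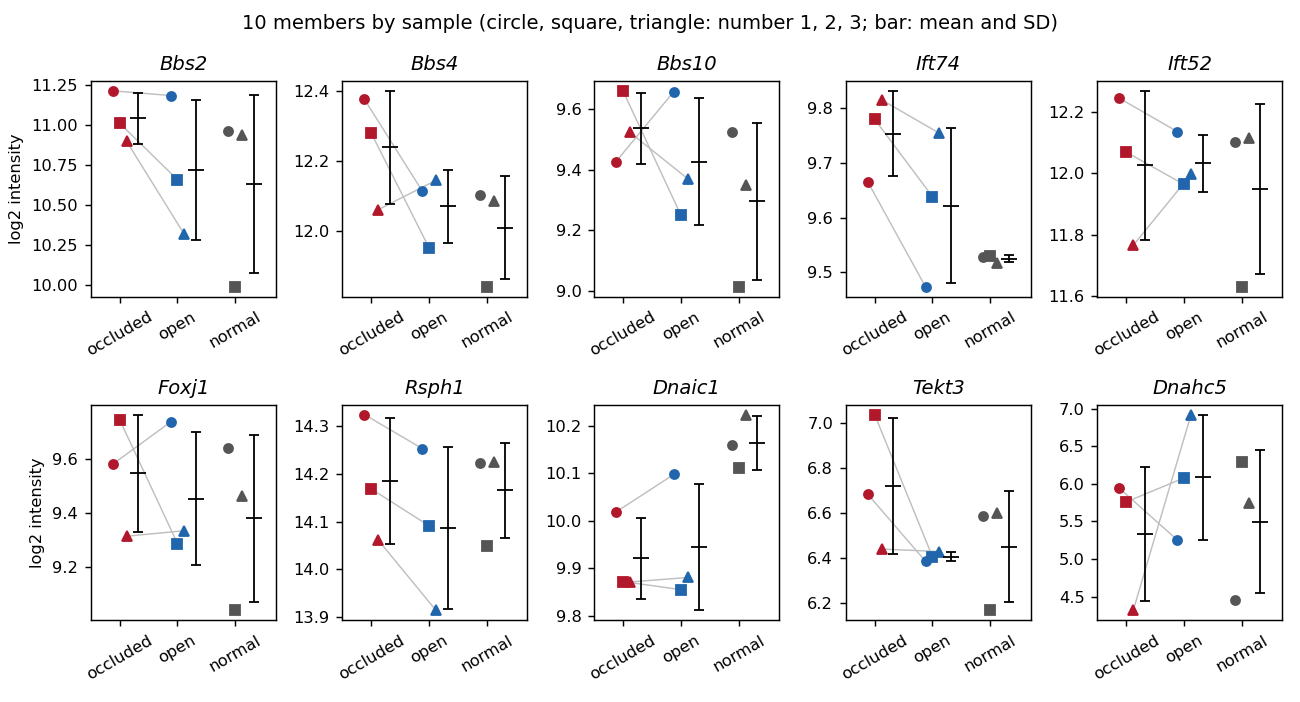
Each panel plots the log2 intensity of a member in 9 samples, with grey lines joining the occluded and open side read as the same mouse and bars giving the mean and SD of 3 replicates. Axes differ between panels; the values of occluded and open sides overlap in 9 of the 10 panels, all but Tekt3.

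How large a change could have been missed is given by the intervals. For 38 of 45 members the 95% interval of the occluded minus open difference lay within a 2-fold change either way, against 72.3% of all probes. This held for 15 of 16 transport genes, all but Ift88, and for 16 of 22 axonemal genes. The axonemal exceptions were Dnahc1, Dnahc2, Dnahc5, Dnahc14, Dnahc17 and Spag17. Replicates of the transport genes had a median SD of 0.279, and those of the axonemal genes 0.346, against 0.359 over all probes. Over the probes above the noise limit on all 27 arrays, as all transport genes were, it was 0.293. The arrays of a replicate, read from the titles as repeat arrays, had a median SD of 0.151 for transport and 0.284 for axonemal genes. The values of transport genes thus differed less between these arrays. The probes above the noise limit on all arrays had 0.237 here. At the median over the members the interval reached 0.46 to either side of the difference, and an adjusted p above 0.05 does not show that the sides were alike. These intervals rest on reading equal title numbers as the same mouse. For occluded minus normal, where no samples share a mouse, the interval reached 0.59 to either side.

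The transport and the axonemal class were then followed mouse by mouse. The transport genes had median occluded minus open differences of -0.04 in mouse 1 (7 of 16 above 0), 0.13 in mouse 2 (12 of 16) and -0.01 in mouse 3 (8 of 16). The axonemal genes had 0.19 (15 of 22), 0.12 (15 of 22) and -0.19 (7 of 22). These are medians of the genes' own side differences, which need not equal the difference of the sample medians plotted for the classes. Mouse 3 thus opposed mice 1 and 2 in the axonemal class, and without it on both sides the median over the axonemal genes was 0.13 instead of -0.03. Without mouse 2 the transport median was -0.04 instead of 0.03. Occluded minus open differences were above 0 in all 3 mice for 3 of 16 transport genes (Bbs2, Bbs7 and Ift74) and 4 of 22 axonemal genes (Dnahc14, Dnali1, Rsph1 and Tekt3), against 13.8% of all probes. They were below 0 in all 3 mice for Ift57 and for Spag17, 1 gene of each class, against 12.6% of all probes. Among the other Spag genes, Spag9 was above and Spag5 below 0 in all 3 mice.

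Markers of the cell types that carry cilia were set beside the classes. The 8 markers of multiciliated cells, none of them a member, had median side differences of 0.36 in mouse 1 (7 of 8 above 0), -0.02 in mouse 2 (3 of 8) and -0.14 in mouse 3 (1 of 8). Their summed level on the log2 scale ranged over 14.54 to 14.88 on occluded sides, 14.54 to 14.83 on open sides and 14.69 to 14.78 in normal mucosa. In mouse 1 these markers and the axonemal genes both lay higher on the occluded side and in mouse 3 both lay lower. In mouse 2 they differed, with -0.02 for the markers and 0.12 for the axonemal genes (15 of 22 above 0). The part of multiciliated cells in the class values was not tested. Of the 9 markers of mature olfactory neurons, Omp was left out here, after its values were seen, because it was saturated. The other 8 had median side differences of 0.41, 0.48 and 0.40 in mice 1, 2 and 3, with 8 of 8 above 0 in each mouse. Their summed level ranged over 17.44 to 17.68 on occluded sides, 17.09 to 17.14 on open sides and 17.19 to 17.27 in normal mucosa. None of the 8 passed the adjusted test (6 at an unadjusted p of 0.05, against 6.19% of all probes). Their direction was known from earlier results of these data. Over the 3 mice the median of these markers was 0.50, against 0.03 for the transport genes, and no test was made of this gap.

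**Figure D4:**
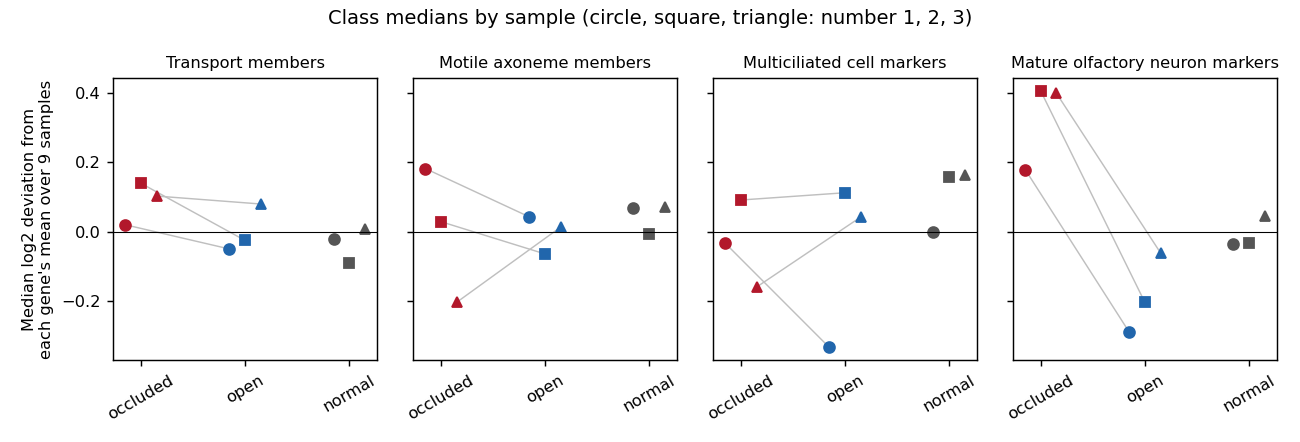
Each point is the median over a gene list of the log2 deviation from each gene's mean over 9 samples, for 16 transport members, 22 axonemal members, 8 multiciliated cell markers and 8 mature neuron markers (without Omp). Grey lines join both sides of a mouse; occluded points lie above open points in 3 of 3 mice for the neuron markers and for the transport members, and in 2 of 3 for the axonemal members.

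Against normal mucosa, no member passed the test on the occluded side, where 2 of all probes (0.00668%) did. A single member, again Spag17, had an unadjusted p under 0.05 (2.88% of all probes). The median occluded minus normal difference was 0.08 for transport genes (10 of 16 above 0) and -0.05 for axonemal genes (9 of 22), against 0.01 and 51% above 0 over all probes. Ift74 was the only member with all occluded values above all normal ones (3.57% of all probes): 9.67 to 9.81 on occluded sides and 9.52 to 9.53 in normal mucosa. The difference was 0.23 ± 0.16, a fold of 1.17 with a 95% interval of 0.911 to 1.51 (adjusted p = 1). Dnaic1 and Spag17 had all occluded values below all normal ones (3.09% of all probes). Dnaic1 had 10.02, 9.87 and 9.87 on occluded sides and 10.16, 10.11 and 10.22 in normal mucosa, a difference of -0.24 ± 0.16. The differences of Bbs2, Bbs4, Bbs10 and Foxj1 were 0.41 ± 0.31, 0.23 ± 0.18, 0.24 ± 0.22 and 0.17 ± 0.24, and that of Tekt3 was 0.27 ± 0.22. In replicate 2 of the normal group Bbs2 had 9.99 and Foxj1 9.04, the lowest of the 9 samples for both. Array c of that replicate had the highest noise limit of all arrays, 24.1, against 13.4 and 15.2 on its arrays a and b. It also had the largest share of probes below the limit, 19.8%. Without that replicate the difference of Bbs2 was 0.09, that of Foxj1 was -0.00 and the transport median was -0.02. Without replicate 3 of the occluded group the axonemal median was 0.11.

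The open side against normal mucosa addressed whether the unblocked side differed from mucosa of sham mice. It shares samples with both comparisons above, so the values stand side by side and are no independent support. Again 0 of 45 members passed the adjusted test, as did 0 of all probes (0%), and Spag17 was the single member with an unadjusted p under 0.05 (1.59% of all probes). Median open minus normal differences were 0.04 for transport genes (12 of 16 above 0) and -0.02 for axonemal genes (9 of 22), against 49.1% above 0 over all probes. No member had all open values above all normal ones (2.06% of all probes), while Dnaic1 and Spag17 had all of them below (2.21% of all probes). Dnaic1 had 10.10, 9.86 and 9.88 on open sides and 10.16, 10.11 and 10.22 in normal mucosa, a difference of -0.22 ± 0.16 (adjusted p = 1). Its values thus lay below the normal ones on both sides of the occluded mice, by at most 0.24 on average, a fold of 0.845 on the occluded side. Bbs10, Ift52 and Ift74 had differences of 0.13 ± 0.21, 0.08 ± 0.21 and 0.10 ± 0.16, Foxj1 had 0.07 ± 0.24 and Dnahc5 had 0.59 ± 0.72. Without replicate 2 of the normal group, the lowest of the group for Bbs10, Ift52 and Foxj1, those 3 differences were -0.01, -0.08 and -0.10, and the transport median was -0.02. Without replicate 3 of the open group the Dnahc5 difference was -0.11.

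Some members followed the number in the sample titles across the groups. Sample 1 was the lowest of the 3 samples in the occluded, the open and the normal group for 6 of 16 transport genes (Bbs5, Ift172, Ift20, Ift57, Ift81 and Ift88) and 2 of 22 axonemal genes (Dnahc2 and Tekt1), against 14.1% of all probes. It was the highest in all 3 groups for 4 of 16 transport genes (Bbs1, Bbs2, Bbs7 and Ift80) and 5 of 22 axonemal genes, against 18.9% of all probes. Numbers 2 and 3 were the extreme in all 3 groups for no transport gene and for 1 axonemal gene (Dnahc8, lowest in number 3), against 2.7% (number 2 lowest), 1.83% (number 2 highest), 2.76% (number 3 lowest) and 2.92% (number 3 highest) of all probes. These genes were singled out after their values were seen. The normal replicates are other mice than those of the occluded and open groups, and what links number 1 across the 3 groups was not tested.

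Bbs5 had 7.73, 9.44 and 9.36 on occluded sides, 8.07, 9.55 and 9.12 on open sides, and 8.36, 9.23 and 9.53 in normal mucosa. Sample 1 lay apart below the others in each group, while the occluded minus open difference was -0.07 ± 0.39. Ift20, which also works at the Golgi, had 9.26, 10.22 and 10.13 on occluded sides, 8.999, 10.04 and 10.66 on open sides, and 9.62, 10.07 and 10.29 in normal mucosa. Ift57 had 11.87, 12.67 and 12.78 on occluded sides, 12.16, 12.85 and 12.98 on open sides, and 12.23, 12.76 and 12.71 in normal mucosa. For Ift57 the further probe with the lowest signal had sample 1 highest in all 3 groups, with 5.69, 5.29 and 5.18 in the occluded, open and normal samples numbered 1, so probes of 1 gene moved in opposite directions with the number. Before normalization, array medians were 151 to 171, 123 to 157 and 131 to 154 in the occluded, open and normal samples numbered 1. They were 146 to 169, 228 to 242 and 209 to 274 in those numbered 2, and 192 to 269, 195 to 235 and 149 to 174 in those numbered 3. The range of number 1 lay below both others in the open group. It overlapped that of number 2 in the occluded group and that of number 3 in the normal group. The part of brightness in the pattern was not tested.

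**Figure D5:**
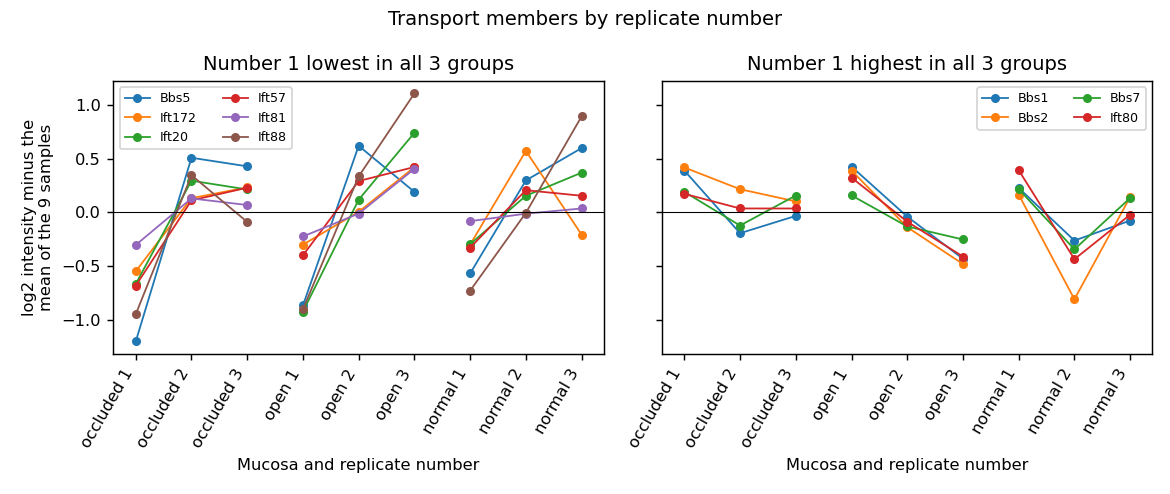
The log2 intensity minus the gene's mean over 9 samples is plotted by sample for the 6 transport genes whose number 1 is lowest in all 3 groups (left) and the 4 whose number 1 is highest (right). The lines join the 3 replicates of a group and carry no order; for Bbs5 the occluded samples had 7.73 in number 1, against 9.44 and 9.36 in numbers 2 and 3.

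Genes of the same pathways under other names were counted as well. Of 43 further transport genes listed (IFT subunits under other names, their kinesin and dynein motors, BBSome partners and gate proteins), 36 were measured and none passed the test in any comparison. Their median occluded minus open difference was 0.06, with 21 of 36 above 0. The smallest p belonged to Ttc21b, an IFT-A subunit, with 7.02, 6.72 and 6.63 on occluded sides and 6.66, 6.35 and 6.03 on open sides. That is 0.44 ± 0.16, above 0 in 3 of 3 mice (adjusted p = 0.671). Tulp3, which brings membrane receptors to the IFT-A complex, had 0.25 ± 0.14, with all occluded values above all open and all normal ones. Occluded values lay above all open ones for 2 of 36 genes (3.76% of all probes) and below them for 2 of 36 (2.94%). Against normal mucosa, occluded values lay above for 2 of 36 (3.57%) and below for 0 of 36 (3.09%). Open values lay above all normal ones for 1 of 36 (2.06%) and below for 1 of 36 (2.21%). The medians were -0.02 for occluded minus normal (14 of 36 above 0) and -0.06 for open minus normal (10 of 36).

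Of 49 further genes of beating cilia, 43 were measured and again none passed in any comparison. Their median occluded minus open difference was 0.08, with 29 of 43 above 0. Occluded values lay above all open ones for 6 of 43 (3.76% of all probes) and below them for 0 of 43 (2.94%). Against normal mucosa, occluded values lay above without overlap for 2 of 43 (3.57% of all probes) and below for 2 of 43 (3.09%). Open values lay above all normal ones for 0 of 43 (2.06%) and below for 2 of 43 (2.21%). Kif9, a kinesin of the central apparatus, had 12.39, 12.29 and 12.40 on occluded sides, 12.04, 11.68 and 11.83 on open sides, and 12.15, 11.75 and 12.01 in normal mucosa. The occluded values lay above all others, with a side difference of 0.51 ± 0.14 (adjusted p = 0.435). Dynlrb2, a dynein light chain, had 14.21, 14.03 and 14.02 on occluded sides, 13.86, 13.11 and 13.69 on open sides, and 14.50, 13.92 and 14.04 in normal mucosa. All open values lay below all others, with an occluded minus open difference of 0.54 ± 0.20 (adjusted p = 0.667) and an open minus normal difference of -0.60 ± 0.25 (adjusted p = 1). Ccdc65, a subunit of the nexin-dynein regulatory complex, had a side difference of 0.27 ± 0.14. Lrrc23, a radial spoke protein, had 12.13, 12.34 and 12.33 on occluded sides, 12.16, 12.48 and 12.39 on open sides, and 12.77, 13.08 and 12.77 in normal mucosa. Both sides of the occluded mice lay below all normal samples, with differences of -0.61 ± 0.18 for the occluded and -0.53 ± 0.18 for the open side (adjusted p = 1 each). The medians of these 43 genes were 0.02 for occluded minus normal and -0.06 for open minus normal, with 24 and 11 of 43 above 0.

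Markers of further cell types of the mucosa gave no gene past the test in any comparison. The median occluded minus open difference was -0.20 for 8 markers of immature olfactory neurons (0 of 8 above 0), -0.18 for 8 secretory markers of respiratory epithelium, -0.14 for 8 markers of sustentacular cells (without Cbr2, which was saturated on all 27 arrays) and 0.07 for 7 markers of skeletal muscle. Against normal mucosa the occluded side had medians of -0.23, -0.13, -0.03 and -0.00 in the same lists.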

How the data were processed

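The authors deposited 1 intensity per probe and array on a linear scale, for 29922 probes and 27 one-colour Cy5 arrays; 21020 probes carry a gene symbol in the platform annotation and 8902 carry none. Which scanner, background method or normalization came before is not given here. The values at or below 0, 1.45% to 3.93% of an array, were set to the lowest positive value, 0.912. Values were then put on the log2 scale, quantile normalized and averaged over the 3 arrays of a replicate. A probe at or above 99.5% of an array's highest value was called saturated, which 36 to 80 probes per array were. The number of replicates, 3 per group, limits the precision.

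limma 3.58.1 (R 4.3.3) fitted the 3 groups together over 9 values, treating samples of the same individual as a random block (estimated correlation 0.389), a two-sided moderated test and Benjamini-Hochberg adjustment over all probes. Both sides of an occluded mouse were sampled, per the design text. That equal title numbers mark a mouse, and letters a to c repeat arrays, is a reading of the titles: deviations from the group means correlated at 0.516, -0.004 and 0.142 between same-numbered occluded and open samples. For number 1, deviations of the normal sample, from a different mouse, correlated at 0.353 with the occluded and 0.394 with the open sample, so these correlations do not settle which samples share a mouse.

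The members and lists were chosen with earlier results of these data known. The rule named Foxj1 and, in each comparison, the 3 transport and the 3 axonemal genes with the smallest p. It also named members whose groups did not overlap with a log2 difference of at least 1. The other members were given with their side difference. Some of them, such as Rsph1, Bbs5, Ift20 and Ift57, were given with sample values after these were seen. From each further list up to 3 genes per comparison with the smallest p were named, leaving out probes mostly below the noise limit. Every p rests on the spread between the 3 samples of a group, pooled over the 3 groups and moderated over all probes. For occluded against open, each p and interval also rests on the correlation of 0.389 estimated between samples read as the same mouse. The fit was tested on simulated data. Alternatives changed the block, the replicate unit, the normalization, the floor, the filter on dim probes, the probe rule and the samples.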

Additional observations from a re-analysis of the deposited data

How the results depend on the processing

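The count of members past the threshold stayed at 0 in every comparison under every alternative run, except for occluded against normal with the title letter taken as the replicate, which gave 2, Bbs2 (0.41, adjusted p = 0.0335) and Spag17 (adjusted p = 0.0298). Under the reading of the titles used here, that setting averages over mice, so by construction its spread holds array error only. It called 805, 803 and 121 of all probes for occluded against open, occluded against normal and open against normal.

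For occluded against open, where 66 probes were called, 3 were called with no replicate block, 2 with the replicate number as a fixed replicate block, 0 in a fit of both sides alone with a fixed replicate block by pair, 0 without normalization and 37 with median centring. Leaving out replicates gave 0 to 123, with 0 whenever number 1 of either side was left out, 123 and 112 without occluded or open replicate 2, 37 and 41 without occluded or open replicate 3, and 35 and 6 without both sides of mouse 2 or 3. For occluded against normal, where 2 were called, the counts were 0 with the replicate number as a fixed replicate block, without normalization and with a floor at 16, 5 with the median of arrays, 24 with an offset of 50, 16 without the dimmest 50% of probes and 0 to 1 when replicates were left out. The cause was not tested.

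Without normalization the transport median was 0.17 for occluded minus normal and 0.14 for open minus normal. Over the fits that left out replicates, the transport median ranged over -0.044 to 0.11 for occluded minus open, -0.024 to 0.19 for occluded minus normal and -0.024 to 0.10 for open minus normal. The axonemal median ranged over -0.12 to 0.13 for occluded minus open and -0.16 to 0.11 for occluded minus normal. Single genes were refitted this way only where the rule named them, and among these the sign turned for Dnahc5 (-1.46 to 0.18 for occluded minus open, -0.11 to 1.002 for open minus normal), Foxj1 (-0.089 to 0.24 for occluded minus open, -0.0045 to 0.30 for occluded minus normal, -0.10 to 0.22 for open minus normal), Bbs10 (-0.0099 to 0.26 for open minus normal) and Ift52 (-0.076 to 0.17 for open minus normal). Dim probes near the noise limit, Dnahc14, Dnahc17 and Spag17 above all, limit what the axonemal class can show; class medians over members above the noise limit on all arrays, an alternative chosen after seeing the data, moved by less than the spread between replicates. The title numbers were not settled as pairs by the values, and most calls of the main fit for occluded against open were lost without the block. Calls lost under a fixed block or without a block are therefore not read as weaker effects, nor those gained with the random block as stronger ones.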
